A study of Mus musculus with 4 samples.

Results

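The 46 genes described here encode the machinery that licenses replication origins and copies DNA: the origin recognition complex (ORC), the licensing factors, the MCM helicase and its relatives, the factors that fire origins, the sliding clamp and its loader, the replicative polymerases, the enzymes that finish Okazaki fragments and those that supply deoxynucleotides. They are a list of gene symbols chosen for these roles, and all 46 were found among the 24411 genes listed in each library. RNA had been sequenced from GFP-positive male germ cells of mouse testes at postnatal day 18, 2 libraries from *Zfp541*+/- testes (controls 1 and 2) and 2 from testes labelled *Zfp541* KO (KO 1 and KO 2), each from 1 testis. All 4 animals carried the knock-in allele *Rec8-3xFLAG-HA-p2A-GFP*, from which GFP and the meiotic cohesin REC8 are produced together, so that sorting enriches for cells in meiotic prophase. ZFP541 is a zinc finger protein of spermatocytes, and the comparison asks which transcripts differ in its absence. The knock-in was heterozygous in 1 control testis and homozygous in the other control and in both testes labelled *Zfp541* KO. The labels do not tie either control library to its knock-in dose, so that dose and the difference between the controls cannot be told apart. The labels name a mixed C57BL/6 and CBA strain, whereas the methods of the study name C57BL/6. The KO allele is a CRISPR/Cas9 deletion spanning many exons, and most experiments of the study used 1 of its founder lines.

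In every dividing cell, ORC marks origins, and CDC6 and CDT1 load the MCM helicase onto them, which geminin prevents after S phase has begun. The kinase CDC7 with its activator DBF4 then fires the origins by letting CDC45 and the GINS complex join the helicase, and polymerases held by the PCNA clamp copy the strands. In the testis this machinery serves the mitotic divisions of spermatogonia and the last S phase, in preleptotene cells, before meiotic prophase, during which no further DNA is replicated. Many of these genes are known targets of the E2F transcription factors, which switch on S phase genes when cells pass from G1 to S.

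To show what the promoters of these genes hold, the 250 bases before the start site of 4 members are printed here from RefSeq (GRCm38.p6), 5′ to 3′ on the strand of the gene, with matches to an E2F site in capitals. *Mcm5* and *Mcm6* were low in control 1 alone, and *Pola1* and *Dbf4* were higher in KO 1 and in KO 2 than in either control. For *Pola1* the margin was small, with 5.15 TPM in KO 2 and 5.02 in control 1. The windows are chr8:75109259-75109508 (plus strand) for *Mcm5*, chr1:128359706-128359955 (minus strand) for *Mcm6*, chrX:93632156-93632405 (minus strand) for *Pola1* and chr5:8422717-8422966 (minus strand) for *Dbf4*.
Mcm5: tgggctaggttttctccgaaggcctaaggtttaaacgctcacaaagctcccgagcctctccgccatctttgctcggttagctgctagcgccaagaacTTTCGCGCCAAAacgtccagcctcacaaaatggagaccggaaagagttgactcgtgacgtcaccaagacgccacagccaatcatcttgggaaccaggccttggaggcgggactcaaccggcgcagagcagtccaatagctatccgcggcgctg
Mcm6: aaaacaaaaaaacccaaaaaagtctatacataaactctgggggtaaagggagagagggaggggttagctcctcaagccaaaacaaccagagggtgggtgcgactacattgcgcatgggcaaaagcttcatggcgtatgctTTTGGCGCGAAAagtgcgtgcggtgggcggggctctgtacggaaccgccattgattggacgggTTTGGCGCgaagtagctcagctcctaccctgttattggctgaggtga
Pola1: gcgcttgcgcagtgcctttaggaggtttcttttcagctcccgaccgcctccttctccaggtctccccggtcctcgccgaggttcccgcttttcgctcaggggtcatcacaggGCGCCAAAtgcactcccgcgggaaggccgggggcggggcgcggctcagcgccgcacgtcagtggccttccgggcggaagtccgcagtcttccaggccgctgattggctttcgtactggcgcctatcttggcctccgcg
Dbf4: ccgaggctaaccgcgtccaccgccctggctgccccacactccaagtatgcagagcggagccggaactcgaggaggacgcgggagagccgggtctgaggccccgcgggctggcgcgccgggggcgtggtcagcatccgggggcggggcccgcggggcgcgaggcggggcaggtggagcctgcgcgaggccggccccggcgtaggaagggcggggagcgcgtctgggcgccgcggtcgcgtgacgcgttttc

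An E2F match was any of TTTCCCGC, TTTGGCGC, TTTGCCGC and TTTCGCGC on either strand, searched in a window of 300 bases, 250 before and 50 after the start, with the start base counted as 0. In the *Mcm5* window 2 overlapping matches began at positions -153 and -149, and in the *Mcm6* window 2 overlapping matches began at -110 and -106 and another at -47. The match of *Pola1* began at -138, and the window of *Dbf4* held none of these letters. A window was given for 38 of the 46 members, in 47 windows, and 16 of the 38 (42.1%) held a match, compared with 704 of 27025 genes with a window (2.6%). By window, 34.0% of the 47 and 2.3% of all 32851 held one. A GC box, GGGCGG, was in the windows of 78.9% of these members and 38.2% of all genes, and the CHR element TTTGAA in 18.4% and 20.2%. The CCAAT box was in 57.9% of members and 41.1% of all genes. The background of all genes was not limited to genes expressed in these libraries and was not matched for GC content. These are matches of letters, and binding was not measured in the data used here.

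Levels are in TPM, for which reads are divided by transcript length before they are scaled, so values of different genes can be compared within a library. Since each library is scaled to an equal total, its depth is unknown and counting error has no interval here. The 14512 genes whose mean over the 4 libraries reached 1 TPM, all 46 members among them, were compared with limma on log2(TPM + 1), and p-values were adjusted over all 14512. Fold changes are given on that scale as the libraries labelled *Zfp541* KO minus the controls, with the standard error (SE), and they understate the change of genes at low TPM. The exact permutation test of 2 libraries against 2 cannot give a p below 0.33, and the p-values measure the spread between these few testes.

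Some facts of the libraries bear on every value that follows. *Zfp541* itself, the gene targeted, was at 112 TPM in control 1, 72.2 in control 2, 136 in KO 1 and 151 in KO 2, so its level did not fall with the label, and each direction drawn here rests on the label alone. A value per gene cannot show whether reads fell on deleted or on remaining exons. *Rec8*, which drives the GFP of the sort, was at 7.05 TPM in control 1, 27.9 in control 2, 27.7 in KO 1 and 19.4 in KO 2. Each library expressed leptotene and zygotene markers (13 of 14 listed genes were in the files), with summed levels of 3404 TPM in control 1, 3917 in control 2, 6315 in KO 1 and 6651 in KO 2. The study aimed at pachytene cells, and the summed level of 14 pachytene markers was 9670 TPM in control 1, 4885 in control 2, 3434 in KO 1 and 4754 in KO 2. This sum is led by *Ldhc* (3659, 1819, 768 and 1230 TPM in the same order). KO 1 and KO 2 were below both controls for 9 of the 14 (64.3%, compared with 12.1% of all genes) and above both for 1 (7.14%, compared with 38.6%). The median difference of the 14 on the log2 scale was -1.58 from control 1 alone and -0.81 from control 2 alone. The controls also differed from each other in somatic markers that the sort should remove. The 6 Leydig cell markers summed to 2910 TPM in control 1 and 18.0 in control 2, where *Lhcgr* was at 0, and to 331 and 504 TPM in KO 1 and KO 2. The 6 macrophage markers summed to 2532 TPM in control 1, 28.7 in control 2, 2150 in KO 1 and 1574 in KO 2, so both sums were lowest in control 2. The other marker sums were those of 9 Sertoli cell markers (840 to 973 TPM in the controls, 870 to 1209 in KO 1 and KO 2), 9 round spermatid markers (60.8 to 143 and 51.0 to 54.5 TPM), 5 myoid and endothelial markers (18.0 to 19.2 and 20.7 to 27.4 TPM) and 6 red cell markers (20.3 to 71.5 and 29.7 to 281 TPM).

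None of the 46 members passed an FDR of 0.05 (limma, Benjamini-Hochberg), as was the case for every gene tested (0.0% of 14512), and the smallest adjusted p among them was 0.310. The log2 fold change was above 0 for 38 of the 46 members (82.6%, compared with 69.0% of all genes tested), and it ranged from -0.70 to 0.90, so that no member reached a 2-fold change (8.99% of all genes were higher and 5.22% lower by that much or more). The median over members was 0.30 and that over all genes was 0.28, with 24 of the 46 members above the latter. These values therefore have to be read against a shift of all genes, which median-ratio scaling took to -0.015, quantile normalization to 0.077 and a correction for transcript length to 0.067. Under these the members' median was -0.034, 0.16 and 0.074, and 22, 32 and 31 of the 46 members lay above 0. KO 1 and KO 2 were above both controls for 17 members (37.0%, compared with 38.6% of all genes) and below both for 2 (4.35%, compared with 12.1%). With median-ratio scaling, quantile normalization and the length correction these counts were 7, 10 and 9 above (22.6%, 27.8% and 24.6% of all genes) and 6, 3 and 2 below (22.8%, 19.4% and 18.5% of all genes). At an unadjusted p under 0.05, 7 members were higher (10.7% of all genes) and 0 lower (3.73% of all genes) by limma, and the former count was 0, 2 and 2 under these settings. Over all 14512 genes, 1702, 2019 and 1427 were at that p in either direction under these settings.

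**Figure D1:**
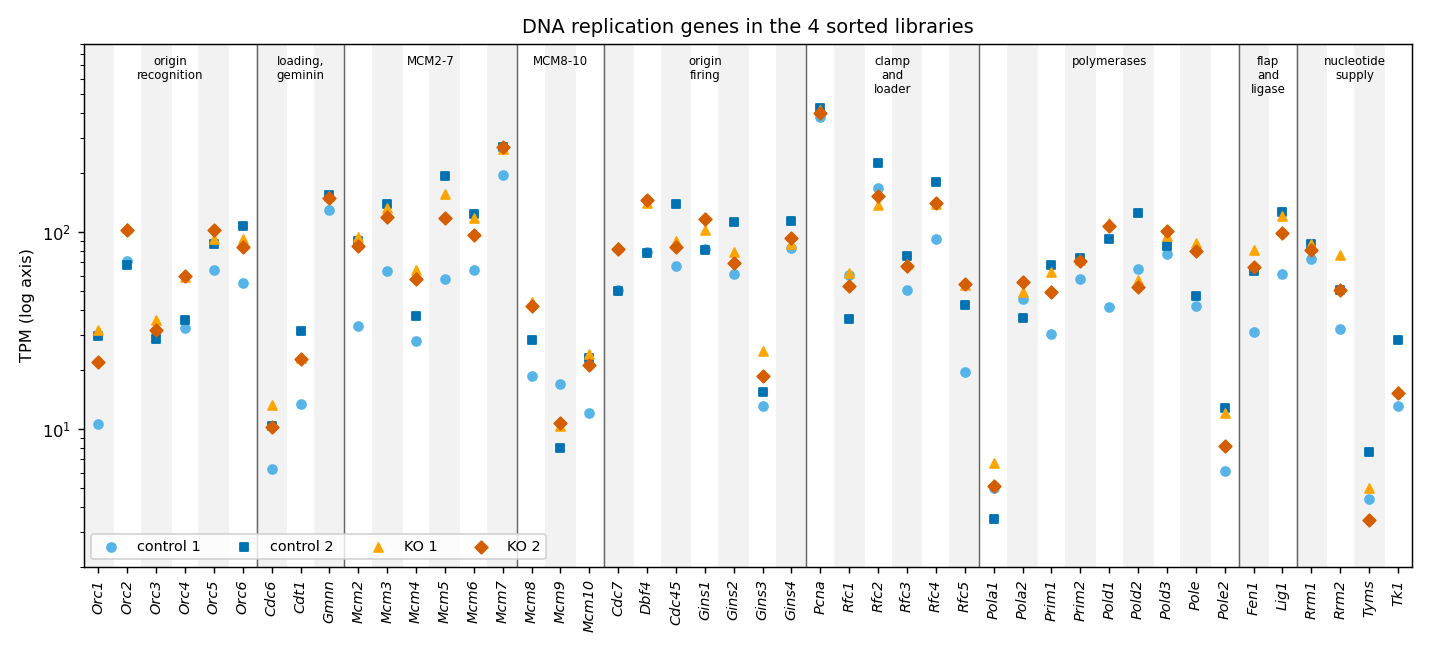
TPM (log axis) of the 46 replication genes in the 4 libraries, grouped by role and with 1 point per library. *Pcna* is at the top in each library (384 to 428 TPM), *Pola1* and *Tyms* are at the bottom, and in most genes of MCM2 to MCM7 control 1 (pale circles) lies apart, below the other libraries.

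The members fell mainly into 2 patterns. In the 17 members above both controls, the order of the libraries followed the labels, but their share was near that of all genes (37.0%, compared with 38.6%). In 24 others control 1 alone was the lowest library and control 2 lay above both libraries labelled *Zfp541* KO (17 members, 37.0%, compared with 10.6% of all genes) or between them (7 members, 15.2%, compared with 3.73%). Control 1 was the lowest of the 4 libraries in 34 of the 46 members (73.9%, compared with 26.6% of all genes). Control 2 exceeded control 1 by at least 2-fold on log2(TPM + 1) in 12 members (5.41% of all genes), and the reverse was seen in 0 members although it held for 26.0% of all genes. The other members were *Rfc2* and *Pold2*, below both controls in KO 1 and KO 2, *Mcm9*, with control 2 lowest and control 1 highest (an order held by 20.3% of all genes), *Rfc1*, with control 2 alone low (6.94%), and *Tyms*, with control 2 alone high (2.34%). No member had control 1 alone high (3.59% of all genes) or both controls between KO 1 and KO 2 (1.82%). As RNA of a sorted population was measured, fewer cells of a type and less RNA per cell cannot be told apart.

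**Figure D2:**
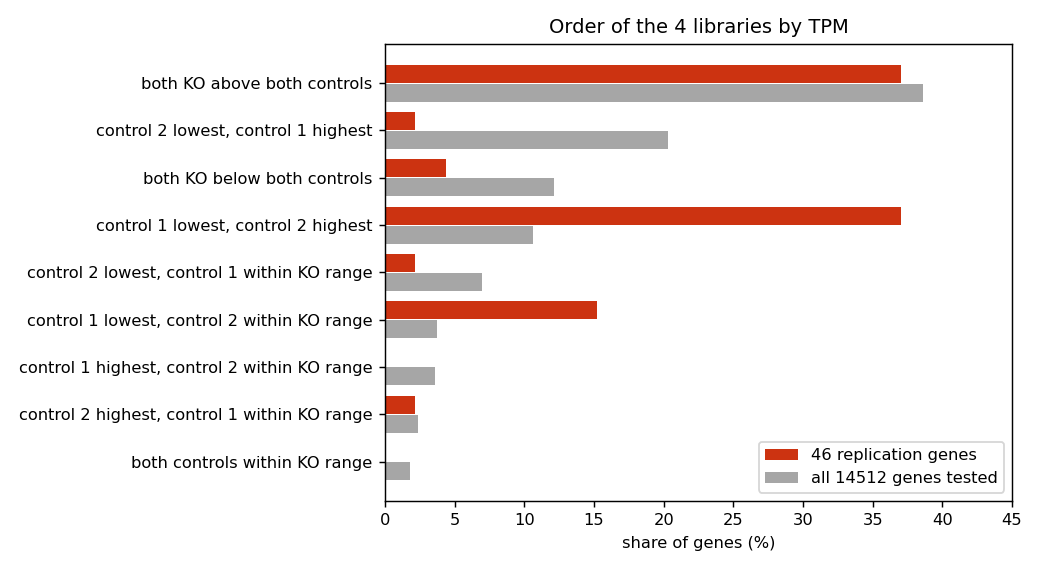
Share of genes (%) with each order of the 4 libraries by TPM, for the 46 replication genes and for all 14512 genes tested. The share with both KO libraries above both controls is 37.0% and 38.6%, whereas the order with control 1 lowest and control 2 highest holds for 37.0% of the replication genes and 10.6% of all genes.

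The result therefore depended on the control. Against control 1 alone the median difference of the libraries labelled *Zfp541* KO was 0.61 on the log2 scale over members and 0.15 over all genes. Against control 2 alone it was -0.023 over members and 0.44 over all genes, so the members lay above the shift of all genes in the former and below it in the latter. The controls themselves differed by a median of 0.57 over members (control 2 higher) and -0.36 over all genes (control 1 higher), and the libraries labelled *Zfp541* KO differed by -0.096 (KO 2 minus KO 1) over members. With control 1 left out, limma called 9 members higher and 6 lower at an FDR of 0.05, and with control 2 left out it called 22 higher and 0 lower, but in these fits the lone control is assumed to vary like the others and the spread comes from the pair labelled *Zfp541* KO alone, with 6985 and 4123 genes called in all. With KO 1 or KO 2 left out, no member was called, and 0 were at an unadjusted p under 0.05.

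**Figure D3:**
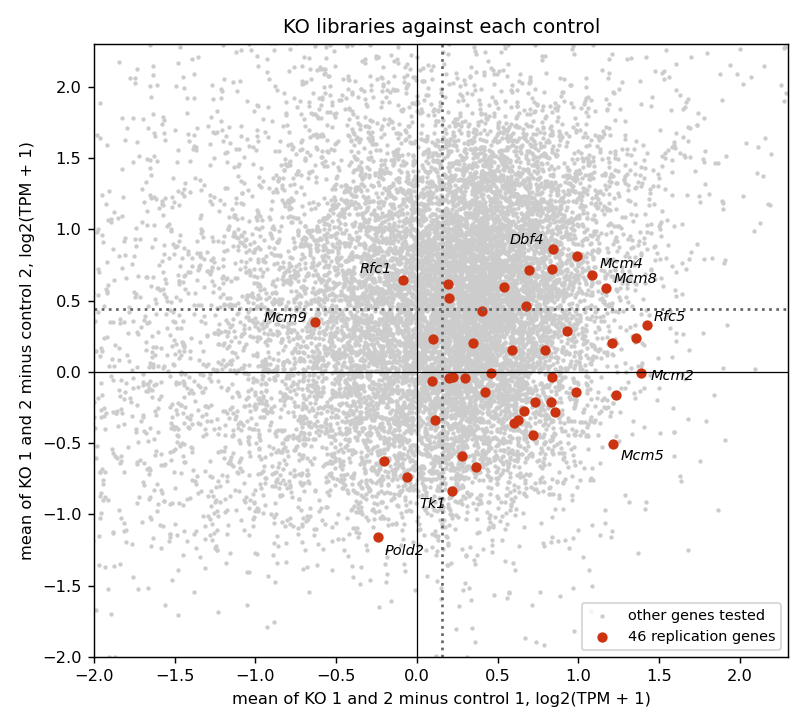
Difference on the log2(TPM + 1) scale of the mean of KO 1 and KO 2 from control 1 (horizontal axis) and from control 2 (vertical axis), with 1 point per gene and genes beyond the axes not drawn. Dotted lines mark the medians of all genes tested, 0.15 and 0.44. *Dbf4*, *Mcm4* and *Mcm8* lie above 0 on both axes, *Mcm2* and *Mcm5* above 0 on the horizontal axis only, and *Pold2* is the lowest member on the vertical axis.

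Among the 6 subunits of ORC, the complex that binds origins and on which the helicase is loaded, the median log2 fold change was 0.45, and 0.12 with median-ratio scaling. *Orc4* was at 32.7 TPM in control 1, 35.6 in control 2, 59.0 in KO 1 and 59.6 in KO 2. The groups did not overlap, and the log2 fold change was 0.78 (SE 0.20, adjusted p = 0.310 from limma), which is 0.50 above the median of all genes. Of the exon bases of *Orc4*, 7.8% are shared with other genes, and the library kit keeps no strand, so reads of overlapping genes on opposite strands cannot be told apart. *Orc2* was at 71.1 TPM in control 1, 68.2 in control 2, 105 in KO 1 and 103 in KO 2, the same pattern, with a log2 fold change of 0.57 (SE 0.17, adjusted p = 0.320 from limma), and 29.8% of its exon bases are shared with *Nif3l1*. *Orc1*, the subunit whose level changes most through the cell cycle in dividing cells, was at 10.7 TPM in control 1, 29.6 in control 2, 31.9 in KO 1 and 21.8 in KO 2. Here control 1 stood alone, and the log2 fold change of 0.54 (SE 0.57, adjusted p = 0.676 from limma) was 1.23 against control 1 and -0.16 against control 2. *Orc6*, a small subunit that is needed to load MCM, was at 55.1, 107, 92.1 and 84.1 TPM in the same order. Control 1 was the lowest and control 2 the highest, and the log2 fold change of 0.19 (SE 0.37, adjusted p = 0.823 from limma) turned to -0.14 with median-ratio scaling. *Orc3* and *Orc5* ranged from 28.6 to 102 TPM, with KO 1 and KO 2 above both controls. Their log2 fold changes were 0.16 for *Orc3*, which turned to -0.16 with median-ratio scaling, -0.11 with quantile normalization and -0.055 with the length correction, and 0.37 for *Orc5*.

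Of the factors that load MCM, *Cdc6*, the ATPase that joins ORC, was at 6.26 TPM in control 1, 10.3 in control 2, 13.2 in KO 1 and 10.2 in KO 2. *Cdt1*, which brings MCM to the origin, was at 13.4, 31.3, 22.9 and 22.6 TPM in the same order, with control 2 the highest. *Gmnn*, which encodes geminin, the inhibitor of CDT1, was the most abundant of the 3 in every library, at 129 TPM in control 1, 154 in control 2, 152 in KO 1 and 149 in KO 2. For each of these the groups overlapped and control 1 was the lowest. Their log2 fold changes were 0.48 for *Cdc6*, 0.14 for *Cdt1*, which turned to -0.19 with median-ratio scaling, -0.072 with quantile normalization and -0.014 with the length correction, and 0.094 for *Gmnn*, which turned to -0.24 with median-ratio scaling. The adjusted p-values from limma were 0.606, 0.909 and 0.835. The ratio of *Gmnn* to *Cdt1* within a library was 9.62 in control 1, 4.93 in control 2, 6.65 in KO 1 and 6.61 in KO 2, so the controls again lay on either side.

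The genes *Mcm2* to *Mcm7* encode the 6 subunits of the replicative helicase. Their summed level was 441 TPM in control 1, 853 in control 2, 827 in KO 1 and 748 in KO 2. Control 1 was the lowest library in the sum and in each of the 6 genes, and control 2 the highest in the sum. The median log2 fold change of the 6 was 0.39, made up of 1.04 against control 1 and -0.079 against control 2. *Mcm5*, whose promoter holds overlapping E2F matches as printed, was at 57.8 TPM in control 1, 193 in control 2, 155 in KO 1 and 118 in KO 2. Control 2 exceeded control 1 by 3.33-fold, and the log2 fold change of 0.35 (SE 0.62, adjusted p = 0.810 from limma) had an SE larger than itself. *Mcm2* was at 33.4, 89.6, 93.8 and 84.6 TPM in the same order, which gave 0.69 (SE 0.51, adjusted p = 0.557 from limma). *Mcm3* was at 63.2, 139, 132 and 120 TPM, a log2 fold change of 0.42 (SE 0.42). *Mcm6* was at 63.9, 124, 118 and 96.8 TPM, a log2 fold change of 0.26 (SE 0.38) that turned to -0.075 with median-ratio scaling and to -0.10 with the length correction. In these 3 genes, too, control 1 alone was low. *Mcm7* was the most abundant subunit in every library, at 195, 270, 264 and 271 TPM in the same order. Control 1 was again the lowest, while control 2 lay between KO 1 and KO 2. The log2 fold change of *Mcm7*, 0.22 (SE 0.24), turned to -0.11 with median-ratio scaling, and 12.6% of its exon bases are shared, among others with the microRNA genes *Mir93* and *Mir25*.

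*Mcm4* was the helicase subunit in which both controls were below both other libraries. It was at 28.1 TPM in control 1, 37.6 in control 2, 63.9 in KO 1 and 57.7 in KO 2. The log2 fold change was 0.88 (SE 0.24, unadjusted p = 0.0201 and adjusted p = 0.315 from limma). *Mcm4* was the least abundant of the 6 in every library, and the ratio of *Mcm7* to *Mcm4* was 6.93 in control 1, 7.19 in control 2, 4.14 in KO 1 and 4.71 in KO 2.

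*Mcm8* and *Mcm9* encode a second helicase, which acts in homologous recombination and is needed for fertility, and *Mcm10* encodes a factor that helps to activate the replicative helicase. *Mcm8* was at 18.6 TPM in control 1, 28.4 in control 2, 44.3 in KO 1 and 41.9 in KO 2. Both controls were below the other libraries, with a log2 fold change of 0.88 (SE 0.30, unadjusted p = 0.0378 and adjusted p = 0.328 from limma). Its partner *Mcm9* was at 16.9, 8.05, 10.3 and 10.7 TPM in the same order, with control 1 the highest and control 2 the lowest and a log2 fold change of -0.14 (SE 0.46, adjusted p = 0.901 from limma). The ratio of *Mcm8* to *Mcm9* within a library was 1.10 in control 1 and 3.53 in control 2, against 4.29 in KO 1 and 3.93 in KO 2, and 19.2% of the exon bases of *Mcm9* are shared with *Asf1a*. *Mcm10* was at 12.1, 23.0, 23.9 and 21.02 TPM, with control 1 alone low. Its log2 fold change of 0.40 (SE 0.40, adjusted p = 0.655 from limma) turned to -0.010 with the length correction.

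For the kinase that fires origins, libraries of the same group were nearly equal. *Dbf4*, the activating subunit, was at 79.3 TPM in control 1, 78.5 in control 2, 140 in KO 1 and 146 in KO 2. The difference between groups was larger than that within them, with a log2 fold change of 0.85 (SE 0.17, unadjusted p = 0.0063 and adjusted p = 0.310 from limma), 0.57 above the median of all genes. *Cdc7*, the catalytic subunit, was at 51.0 TPM in control 1, 50.3 in control 2, 84.1 in KO 1 and 82.0 in KO 2, a log2 fold change of 0.70 (SE 0.18, unadjusted p = 0.0152 and adjusted p = 0.311 from limma). The ratio of *Cdc7* to *Dbf4* differed little between libraries but was lower in KO 1 and KO 2. It was 0.642 and 0.641 in the controls, and 0.600 and 0.561 in KO 1 and KO 2. Of the factors that the kinase brings to the helicase, *Gins1* and *Gins3* had both controls below both other libraries as well, and *Cdc45*, *Gins2* and *Gins4* did not. *Cdc45*, an obligate part of the active helicase, was at 67.0 TPM in control 1, 139 in control 2, 89.6 in KO 1 and 83.9 in KO 2. Control 1 was thus the lowest and control 2 the highest, and the log2 fold change was -0.15 (SE 0.39, adjusted p = 0.877 from limma). Of the 4 GINS subunits, *Gins1* was at 82.4 TPM in control 1, 81.2 in control 2, 103 in KO 1 and 116 in KO 2 (log2 fold change 0.41, SE 0.18, adjusted p = 0.385 from limma). *Gins3* was the least abundant of them in every library (13.1 to 24.8 TPM). *Gins2* and *Gins4* (61.2 to 114 TPM) had control 1 lowest and control 2 highest, with log2 fold changes of -0.16 and -0.11, the latter at 0.0002 with the length correction, and 67.3% of the exon bases of *Gins2* are shared with *Gse1*. Within a library *Gins1* was at 1.35, 0.720, 1.29 and 1.66 times *Gins2* in the same order, so that ratio did not separate the groups, whereas that to *Gins4* was 0.988 in control 1, 0.713 in control 2, 1.18 in KO 1 and 1.25 in KO 2.

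*Pcna*, which encodes the clamp, was the most abundant member in every library, at 384 TPM in control 1, 428 in control 2, 418 in KO 1 and 402 in KO 2. Its groups overlapped, with a log2 fold change of 0.015 (SE 0.20, adjusted p = 0.979 from limma) that turned to -0.32 with median-ratio scaling. The clamp loader has 5 subunits, of which RFC1 is the large one. *Rfc1* was at 60.7, 36.3, 61.8 and 52.9 TPM, with control 2 the lowest, and its log2 fold change of 0.28 (SE 0.32) turned to -0.052 with median-ratio scaling and to -0.12 with the length correction. *Rfc5* was at 19.5 TPM in control 1, 42.7 in control 2, 53.6 in KO 1 and 54.2 in KO 2. The libraries labelled *Zfp541* KO were alike and above both controls, but the controls differed by 2.19-fold and the log2 fold change was 0.88 (SE 0.42, adjusted p = 0.411 from limma). The groups of *Rfc5* overlapped under median-ratio scaling, quantile normalization and the length correction. *Rfc2* went the other way, at 167 TPM in control 1, 223 in control 2, 137 in KO 1 and 152 in KO 2 (log2 fold change -0.42, SE 0.23, adjusted p = 0.449 from limma). The ratio of *Rfc5* to *Rfc2* was 0.117 in control 1, 0.191 in control 2, 0.392 in KO 1 and 0.356 in KO 2. Shared exon bases amount to 10.7% of *Rfc5* (with *Wsb2*) and 15.1% of *Rfc2* (with *Lat2*). *Rfc3* and *Rfc4* (50.8 to 179 TPM) had control 1 lowest and control 2 highest, and their log2 fold changes of 0.14 and 0.12 turned to -0.19 and -0.21 with median-ratio scaling and, for *Rfc3*, to -0.047 with quantile normalization and -0.016 with the length correction.

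Of the polymerases, polymerase epsilon copies the leading strand, polymerase delta the lagging strand, and polymerase alpha with primase starts each fragment. *Pole*, the catalytic subunit of epsilon, was at 41.9 TPM in control 1, 47.5 in control 2, 87.6 in KO 1 and 80.5 in KO 2. This was the highest log2 fold change of the 46 members, 0.90 (SE 0.20, unadjusted p = 0.00852 and adjusted p = 0.310 from limma), 0.61 above the median of all genes. With the length correction it was 0.34, below those of *Dbf4* (0.73), *Mcm8* (0.62) and *Mcm4* (0.60), and under quantile normalization it was 0.70, below *Dbf4* at 0.73. Its partner *Pole2* (6.09 to 12.8 TPM) had control 1 lowest and control 2 highest, with a log2 fold change of 0.14 that turned to -0.17 with median-ratio scaling and to -0.056 under quantile normalization. *Pold1*, the catalytic subunit of delta, was at 41.8 TPM in control 1, 92.2 in control 2, 111 in KO 1 and 107 in KO 2. KO 1 and KO 2 were above both controls, with control 2 close to them, and the log2 fold change was 0.80 (SE 0.42, adjusted p = 0.437 from limma). *Pold2*, the second subunit of the same enzyme, was at 65.2 TPM in control 1, 124 in control 2, 57.4 in KO 1 and 52.6 in KO 2. This was the lowest log2 fold change of the members, -0.70 (SE 0.36, adjusted p = 0.430 from limma), 0.99 below the median of all genes. With the length correction it was -0.67, above *Rfc2* (-0.84) and *Tyms* (-0.71), and the groups of *Pold2* then overlapped. The ratio of *Pold1* to *Pold2* was 0.642 in control 1, 0.743 in control 2, 1.93 in KO 1 and 2.03 in KO 2. The order of these subunits was thus the opposite in the 2 groups. A common scaling factor per library leaves such a ratio unchanged, whereas quantile normalization and the length correction do not. *Pold3* (77.1 to 101 TPM), an accessory subunit of delta, and *Pola2* (36.4 to 55.6 TPM), one of alpha, had KO 1 and KO 2 above both controls as well. Their log2 fold changes were 0.28, which turned to -0.058 with median-ratio scaling, and 0.36. *Pola1*, an X-linked gene and the catalytic subunit of alpha, was at 5.02 TPM in control 1, 3.48 in control 2, 6.69 in KO 1 and 5.15 in KO 2. Its log2 fold change of 0.41 (SE 0.40, adjusted p = 0.656 from limma) turned to -0.046 with the length correction. The groups of *Pola1* overlapped under median-ratio scaling, quantile normalization and the length correction. *Prim1*, the catalytic primase subunit, was at 30.4, 67.8, 62.4 and 49.8 TPM with control 1 alone low, and its log2 fold change of 0.29 (SE 0.44) turned to -0.044 with median-ratio scaling. *Prim2* (58.0 to 73.5 TPM), the large primase subunit, also had control 1 lowest and control 2 highest, and its log2 fold change of 0.13 turned to -0.21 with median-ratio scaling and to -0.060 under quantile normalization.

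**Figure D4:**
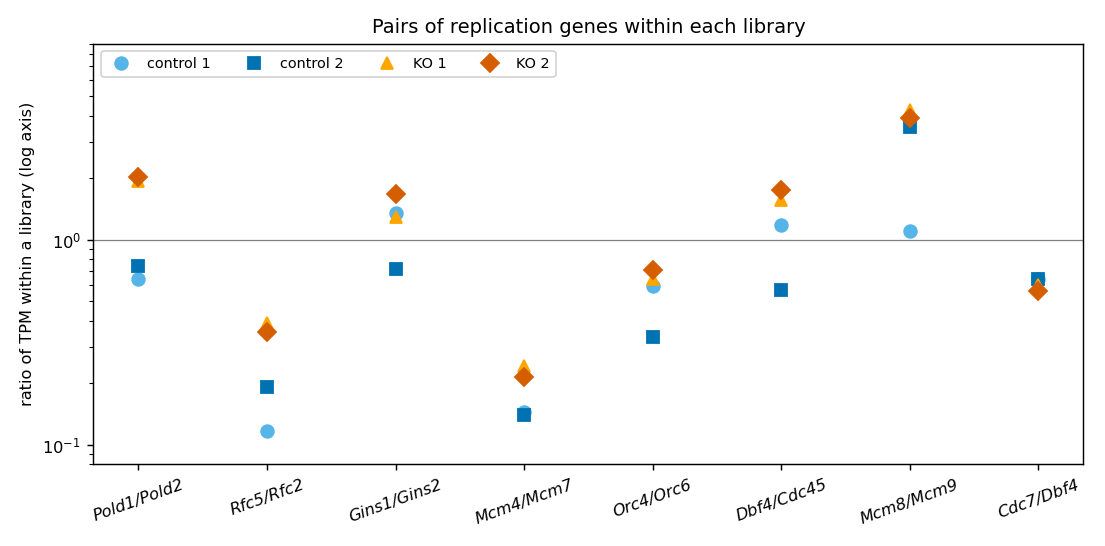
Ratio of TPM (log axis) within each library for 8 pairs of replication genes, with 1 point per library. *Pold1*/*Pold2* is 0.642 in control 1, 0.743 in control 2, 1.93 in KO 1 and 2.03 in KO 2, *Rfc5*/*Rfc2* and *Mcm4*/*Mcm7* are also higher in KO 1 and KO 2 than in both controls, and *Cdc7*/*Dbf4* lies between 0.561 and 0.642 in all 4. The pairs were chosen after the values were seen.

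Of the enzymes that join Okazaki fragments, *Fen1*, the flap endonuclease, was at 31.2 TPM in control 1, 63.7 in control 2, 81.2 in KO 1 and 66.4 in KO 2. The log2 fold change was 0.71 (SE 0.40, adjusted p = 0.468 from limma), control 2 lay close to KO 2, and 84.2% of the exon bases of *Fen1* are shared with *Gm10143* or *Tmem258* on the opposite strand. *Lig1*, the ligase, was at 61.0, 127, 121 and 98.9 TPM, with control 1 alone low and a log2 fold change of 0.31 (SE 0.41, adjusted p = 0.739 from limma) that turned to -0.025 with median-ratio scaling. The 4 genes of deoxynucleotide supply had the lowest median of the roles, -0.12. *Rrm1*, the large subunit of ribonucleotide reductase, was at 73.1, 86.9, 87.1 and 81.3 TPM, and its log2 fold change of 0.077 (SE 0.20) turned to -0.26 with median-ratio scaling, -0.082 with quantile normalization and -0.38 with the length correction. *Rrm2*, the small subunit that is made in S phase, was at 32.1, 50.8, 76.0 and 50.6 TPM, with KO 1 the highest (log2 fold change 0.61, SE 0.35, adjusted p = 0.473 from limma). *Tyms*, which makes thymidylate, was at 4.39, 7.61, 5.0 and 3.46 TPM and was the least abundant member in control 1, KO 1 and KO 2. *Tk1*, which salvages thymidine, was at 13.1, 28.3, 15.5 and 15.2 TPM, with control 1 lowest and control 2 highest. Their log2 fold changes were -0.40 (SE 0.45, adjusted p = 0.699 from limma) and -0.31 (SE 0.45, adjusted p = 0.764 from limma).

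The members for which KO 1 and KO 2 exceeded both controls also under median-ratio scaling, quantile normalization and the length correction numbered 6: *Orc2*, *Orc4*, *Mcm4*, *Mcm8*, *Cdc7* and *Dbf4*. *Rfc2* was the only member below both controls under each of them. For *Orc5*, *Gins3*, *Rfc5*, *Pola1*, *Pold1*, *Pold3* and *Fen1*, which were above both controls in TPM, the groups overlapped under each of them. The share of all genes that kept either order under all these settings was not counted, so these counts cannot be compared with it. Under each setting alone, 7, 10 and 9 members were above both controls, compared with 22.6%, 27.8% and 24.6% of all genes. Promoters of the 2 main patterns held E2F matches in 6 of the 14 members with a window among those with KO 1 and KO 2 higher. Among the other members in which control 1 was the lowest library, by however little, it was 10 of 20. The CCAAT box was in 35.7% of the former and 70.0% of the latter, and neither difference was tested.

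**Figure D5:**
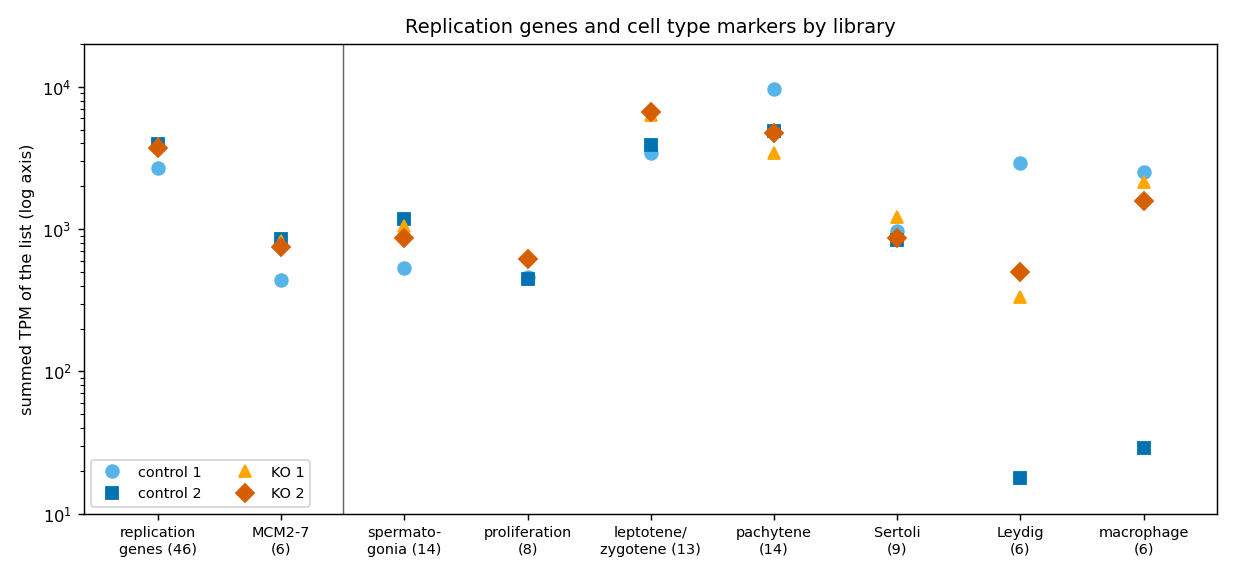
Summed TPM (log axis) of the 46 replication genes, of the 6 genes *Mcm2* to *Mcm7* and of marker lists, with the number of genes in brackets and 1 point per library. The sums of the replication genes and of the spermatogonial markers (led by *Uchl1*) are lowest in control 1, that of the pachytene markers is highest in control 1, and those of the Leydig cell and macrophage markers are lowest in control 2.

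The marker sums differed between the libraries as well. The 46 members summed to 2699 TPM in control 1, 3948 in control 2, 3936 in KO 1 and 3731 in KO 2. The 14 spermatogonial markers, all in the files, summed to 536, 1182, 1056 and 869 TPM in the same order. This sum is led by *Uchl1* (127, 559, 273 and 225 TPM), and the other 13 markers summed to 409, 623, 783 and 644 TPM, so control 1 was the lowest with and without it, but control 2 was the highest only with it. Single markers did not all follow. *Id4*, *Etv5*, *Kit*, *Zbtb16* (5.54 and 4.51 TPM) and, by little, *Gfra1* (1.27 and 1.25 TPM) were higher in control 1 than in control 2. The median level over the 14 was 21.2, 20.9, 19.4 and 16.4 TPM in the same order of libraries. The 8 markers of proliferation, which act mostly in G2 and mitosis, had another order in their sum, with 457 TPM in control 1, 444 in control 2, 644 in KO 1 and 621 in KO 2. Of the 8, 5 had KO 1 and KO 2 above both controls (38.6% of all genes), as had *Dbf4* and *Cdc7*. *Birc5* went the other way (116, 139, 94.2 and 97.5 TPM in the same order), and the groups of *Aurkb* and *Plk1* overlapped. The leptotene and zygotene sum was also higher in both libraries labelled *Zfp541* KO. The part of these cell populations in the members' differences was not tested.

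The rest of the replication pathway was read from 5 lists with 82 genes, all of which were tested. None passed an FDR of 0.05 by limma, 22 were higher and 1 lower at an unadjusted p under 0.05 (10.7% and 3.73% of all genes), and the median log2 fold change was 0.44 (0.28 over all genes). KO 1 and KO 2 were above both controls for 45 of the 82 (38.6% of all genes) and below for 5 (12.1% of all genes). The lists are described by the same counts, to be read beside those shares, and by their medians with and without median-ratio scaling. Among 26 other fork proteins (17 above both controls, 2 below, median 0.64, and 0.31 with that scaling), *Rpa3*, the small subunit of the single-strand binding complex, was highest, at 34.2 TPM in control 1, 75.7 in control 2, 156 in KO 1 and 110 in KO 2. The lowest was *Rnaseh2a*, which removes RNA from DNA, at 162 TPM in control 1, 69.8 in control 2, 18.6 in KO 1 and 18.5 in KO 2, a log2 fold change of -2.46 (SE 0.45, adjusted p = 0.310 from limma). Among 12 other origin factors (8 above, 1 below, median 0.70, and 0.37 with that scaling), the highest was the meiotic MCM relative *Mcmdc2*, with 36.6 TPM in control 1, 29.2 in control 2, 99.3 in KO 1 and 134 in KO 2 (log2 fold change 1.78, SE 0.26, adjusted p = 0.310 from limma). The lowest was *Lrwd1*, which binds ORC, with a log2 fold change of -0.35. In the 30 genes of the G1 to S transition (14 above, 2 below, median 0.36, and 0.040 with that scaling) the highest was *Skp2*, a subunit of the ubiquitin ligase that marks p27 for destruction, with 7.29 TPM in control 1, 7.31 in control 2, 16.9 in KO 1 and 19.9 in KO 2. The lowest was *Ccna1*, the germ cell cyclin A, with 48.2 TPM in control 1, 4.83 in control 2, 2.2 in KO 1 and 1.8 in KO 2, so control 1 stood far above the other libraries (log2 fold change -2.50, SE 1.11, adjusted p = 0.387 from limma). In the 8 other nucleotide genes (5 above, 0 below, median 0.59, and 0.27 with that scaling) the lowest was *Shmt1*, which moves 1-carbon units between serine and folate, with a log2 fold change of -0.081. In the 6 chromatin assembly genes (1 above, 0 below, median 0.021, and -0.31 with that scaling) *Asf1a* and *Chaf1b*, which place histones on new DNA, were the highest and lowest, with 0.63 and -0.35.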

How the data were processed

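RNA of 2 *Zfp541*+/- and 2 *Zfp541* KO samples, grouped by their labels, was analysed. The authors deposited TPM, made with Trim Galore 0.5.0 and cutadapt 1.16, STAR 2.6.0a on mm10 and RSEM 1.3.1 per the submitters' notes, from single-end reads of an mRNA kit that keeps no strand. TPM sums to the same total in each library, so depth and its effect on precision are unknown. Log2(TPM + 1) of genes averaging 1 TPM or more was fitted by genotype in R 4.3.3 with limma 3.58.1 (mean-variance trend, Benjamini-Hochberg over all 14512 genes, FDR of 0.05), and the procedure was tested on simulated data. The members and the lists were chosen with earlier results of these data known. TPM in every library was given for the 10 members with the largest absolute log2 fold change and for genes that anchor a role, and the rest were given by range. In 5 further lists, the highest and lowest genes were named, except for 1 item that is not reported here. Exon overlaps came from GENCODE M21 and promoters from RefSeq. Alternatives were another pseudocount, filter, scaling or variance model, a length correction (lengths for 95.9% of genes), a replicate block and leaving out each sample. In the files, 27 entries carry a date in place of a symbol and were given no name.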

Additional observations from a re-analysis of the deposited data

How the results depend on the processing

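With pseudocounts of 0.1 and 5, no filter, a filter of 5 TPM, no trend and either block, no named member changed sign. No member passed an FDR of 0.05 under any alternative that kept all 4 libraries. Leaving out a library moved the members past FDR to between 0 and 22 higher and between 0 and 6 lower, those at an unadjusted p under 0.05 to between 0 and 30 higher and between 0 and 8 lower, the median log2 fold change to between -0.023 and 0.61, and the members with groups that do not overlap to between 18 and 41 higher and between 2 and 20 lower. The lowest median came without control 1 and the highest without control 2. Fewer libraries make an overlap less likely by construction, and the shares of all genes without overlap are not given for these fits. In each of them the lone library of a group is assumed to vary like the others. The member counts with a library left out, by p or by overlap, therefore cannot be read as a difference from all genes.

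Median-ratio scaling gave 0 members at an unadjusted p under 0.05 in either direction, 7 members above and 6 below both controls and a median of -0.034. Quantile normalization gave 2 higher at that p and 10 above both controls, and the length correction gave 2 and 9. The counts or shares over all genes at these settings are given above. The replicate numbers were also used as a block, although samples of the same number deviated with a correlation of -0.16 across genes. With the replicate block, 2 members were higher at an unadjusted p under 0.05 (1107 of 14512 genes in either direction) and 0 were past FDR. With the crossed pairing, added after seeing the data, 7 members were higher at that p (1915 of 14512 genes in either direction). Past FDR were 0 members and 87 of all genes.

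The log2 fold change turned negative with median-ratio scaling for *Orc6* (-0.14), *Cdt1* (-0.19), *Gmnn* (-0.24), *Mcm6* (-0.075), *Mcm7* (-0.11), *Pcna* (-0.32), *Rfc1* (-0.052), *Prim1* (-0.044), *Lig1* (-0.025) and *Rrm1* (-0.26). With quantile normalization it did so for *Cdt1* (-0.072) and *Rrm1* (-0.082), and with the length correction for *Cdt1* (-0.014), *Mcm6* (-0.10), *Mcm10* (-0.010), *Rfc1* (-0.12), *Pola1* (-0.046) and *Rrm1* (-0.38). Leaving out a library turned the sign of 18 named members: *Orc1* (-0.16 to 1.23), *Orc6* (-0.28 to 0.67), *Cdt1* (-0.45 to 0.72), *Gmnn* (-0.034 to 0.22), *Mcm2* (-0.0090 to 1.39), *Mcm3* (-0.15 to 0.98), *Mcm5* (-0.51 to 1.21), *Mcm6* (-0.21 to 0.73), *Mcm7* (-0.012 to 0.46), *Mcm9* (-0.63 to 0.35), *Mcm10* (-0.035 to 0.84), *Cdc45* (-0.67 to 0.37), *Pcna* (-0.064 to 0.093), *Rfc1* (-0.085 to 0.64), *Prim1* (-0.28 to 0.86), *Lig1* (-0.21 to 0.83), *Rrm1* (-0.046 to 0.20), *Tk1* (-0.84 to 0.22). The cause of these changes was not tested beyond the values of each library given above. Depth is unknown, so no limit from counting can be stated.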
